A study of Mus musculus with 12 samples.

Results

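The genes described here are 36 genes listed as enriched in myelinating oligodendrocytes, outside the classical myelin protein genes. They were taken by symbol from a table of 23354 gene symbols measured by RNA sequencing of mouse cortex. Every symbol had a single row, and all 36 rows passed the filter on low values (0.5 FPKM or more on average across all 12 libraries), which 14075 symbols passed. FPKM is the number of fragments scaled to transcript length and to the total of mapped fragments, so levels are given per length. They were chosen by name with results of these data in view, and some were chosen by their lower FPKM in the Dnmt1 CKO cortex. The values of the Dnmt1 line are therefore a description, and only the Dnmt3a line, which the choice did not use, was tested.

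Cortices came from C57BL/6 mice at postnatal day 16, with 3 libraries, stated to be biological replicates, in each of 4 groups. Dnmt1 Control mice carried Olig1+/+;Dnmt1flox/flox and Dnmt1 CKO (conditional knockout) mice carried Olig1cre/+;Dnmt1flox/flox. Dnmt3a Control mice carried Olig1+/+;Dnmt3aflox/flox and Dnmt3a CKO mice carried Olig1cre/+;Dnmt3aflox/flox. Controls were littermates and shared the floxed alleles of their own line, and only CKO mice carried cre in place of 1 copy of Olig1, a transcription factor gene of the oligodendrocyte lineage. Cre therefore acts in cells that use the Olig1 locus, while the RNA came from whole cortex. Dnmt1 encodes the methyltransferase that copies DNA methylation after replication, and Dnmt3a encodes a methyltransferase that can set new methylation. Fewer oligodendrocytes and less RNA per oligodendrocyte cannot be told apart in such samples.

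The relative depth of the libraries lay between 0.856 and 1 of the deepest. Dnmt1 itself was at 10.6, 10.2 and 9.78 FPKM in the Dnmt1 controls and at 7.26, 9.11 and 9.09 FPKM in the Dnmt1 CKO libraries. Dnmt3a was at 31.1, 16.9 and 28.7 FPKM in the Dnmt3a controls and at 13.6, 14.2 and 15.4 FPKM in the Dnmt3a CKO libraries, so the library labelled Dnmt3a Control replicate 2 lay nearer to the CKO libraries than to its own group. The medians and counts of calls in the Dnmt3a line, for the members and the lists of oligodendrocyte genes, are given with and without it. A fit with a covariate is given only with it, and so are values of single members unless stated. Olig1 was lower in the CKO libraries of both lines, at 20.6, 21.9 and 18.4 FPKM against 50.9, 46.6 and 42.0 FPKM in the Dnmt1 line and at 30.6, 38.8 and 32.2 FPKM against 48.4, 49.8 and 44.1 FPKM in the Dnmt3a line. In Olig1, at 49.8 FPKM, the library labelled Dnmt3a Control replicate 2 thus lay with its own group. Xist, the transcript of the inactive X chromosome of females, was at 1.69 to 1.85 FPKM in the 3 Dnmt1 CKO libraries, whereas each of the 9 other libraries lay either below 0.1 FPKM or between 46.2 and 49.4 FPKM. The source of this Xist level was not tested, nor was whether each Dnmt1 CKO library came from 1 animal. The spread and n of that group are those of libraries.

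Oligodendrocytes wrap axons in myelin, a stack of membrane with its own proteins and lipids. To build it, a cell lays down adhesion and junction proteins, remodels its actin and microtubules, receives signals from axons and other cells, and keeps up a supply of energy and lipid. The 36 genes belong to these tasks rather than to the sheath's bulk proteins. By their best known role, 9 encode membrane or junction proteins, 8 act in the cytoskeleton or membrane traffic, 8 in receptors and signalling, 4 in small-molecule metabolism, 4 in protein or RNA handling, and 3 encode secreted proteins. Enrichment of the 36 in oligodendrocytes could not be checked in whole cortex and was taken from the list. A separate list of 20 myelin sheath genes, none of which was in the 36, had a summed level of 2055 to 2380 FPKM in the Dnmt1 controls and 2605 to 3100 FPKM in the Dnmt3a controls.

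The cytosine of CG dinucleotides is the main target of DNA methyltransferases, although not the only one. The bases before the start of transcription are therefore shown for 4 members with very different values, with each CG in capitals. They are the 250 bases before the start in RefSeq's promoter table for GRCm38.p6, written 5′ to 3′ on the gene's strand. Plekhh1 (chr12:79028913-79029162, + strand, 18 CG) and Tmem88b (chr4:155785875-155786124, - strand, 3 CG) were among the members with the lowest Dnmt1 CKO values. Enpp4 (chr17:44105810-44106059, - strand, 31 CG) and Apod (chr16:31314809-31315058, - strand, 4 CG) were among those with smaller differences.
Plekhh1: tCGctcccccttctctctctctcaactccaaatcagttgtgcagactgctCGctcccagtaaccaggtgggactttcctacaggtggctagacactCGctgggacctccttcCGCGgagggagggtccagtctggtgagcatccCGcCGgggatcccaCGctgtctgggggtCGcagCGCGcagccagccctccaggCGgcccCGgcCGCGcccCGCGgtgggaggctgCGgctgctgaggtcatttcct
Tmem88b: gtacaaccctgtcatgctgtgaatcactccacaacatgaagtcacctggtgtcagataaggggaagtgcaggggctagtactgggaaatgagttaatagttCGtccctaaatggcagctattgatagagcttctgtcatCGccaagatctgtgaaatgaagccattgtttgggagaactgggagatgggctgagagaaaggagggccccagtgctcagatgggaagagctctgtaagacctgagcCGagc
Enpp4: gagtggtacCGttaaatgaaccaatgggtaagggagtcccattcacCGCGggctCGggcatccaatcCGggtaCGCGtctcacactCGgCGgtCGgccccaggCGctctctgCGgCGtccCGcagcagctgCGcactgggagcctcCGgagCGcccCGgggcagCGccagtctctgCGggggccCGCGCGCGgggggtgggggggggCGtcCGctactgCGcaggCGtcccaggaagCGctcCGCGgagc
Apod: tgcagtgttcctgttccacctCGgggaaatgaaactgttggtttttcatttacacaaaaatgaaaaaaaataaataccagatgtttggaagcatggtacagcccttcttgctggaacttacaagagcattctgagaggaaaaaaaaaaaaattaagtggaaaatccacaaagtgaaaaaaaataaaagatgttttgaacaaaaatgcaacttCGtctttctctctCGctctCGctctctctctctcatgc
The pairs were shown as examples, each with a window of more CG and a window of fewer. Promoter entries were found for 26 of the 36 members, with 35 windows in all, and the count of CG ranged from 1 to 52 with a median of 12. The median was 15 over the 13167 windows of all symbols tested.

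In the Dnmt1 CKO cortex most of the 36 genes were lower than in the controls. The 3 CKO libraries held 63.1%, 67.9% and 64.7% of the mean control level in the median over the members, whereas the 3 controls held 104.5%, 101% and 95.7% of it. In Dnmt1 CKO replicates 1 and 2 all 36 members lay below the control mean, and in replicate 3 it was 34. The median log2 fold change of log2(FPKM + 0.1) was -0.58 over the members and -0.02 over all 14115 rows. In a limma fit over all rows, 26 of the 36 lay past 10% FDR with a lower value and 0 with a higher value, where 2.3% of all rows were called lower. This was the contrast used to choose the genes, so the count describes the choice. In 30 members every CKO library lay below every control, which held for 14.4% of all rows, and in 6 members (Efnb3, Cryab, Evi2a, Qdpr, Ndrg1 and Apod) the groups overlapped. The sizes were graded, with 10 members below -1 on the log2 scale, 10 between -1 and -0.5, and 16 above -0.5.

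**Figure D1:**
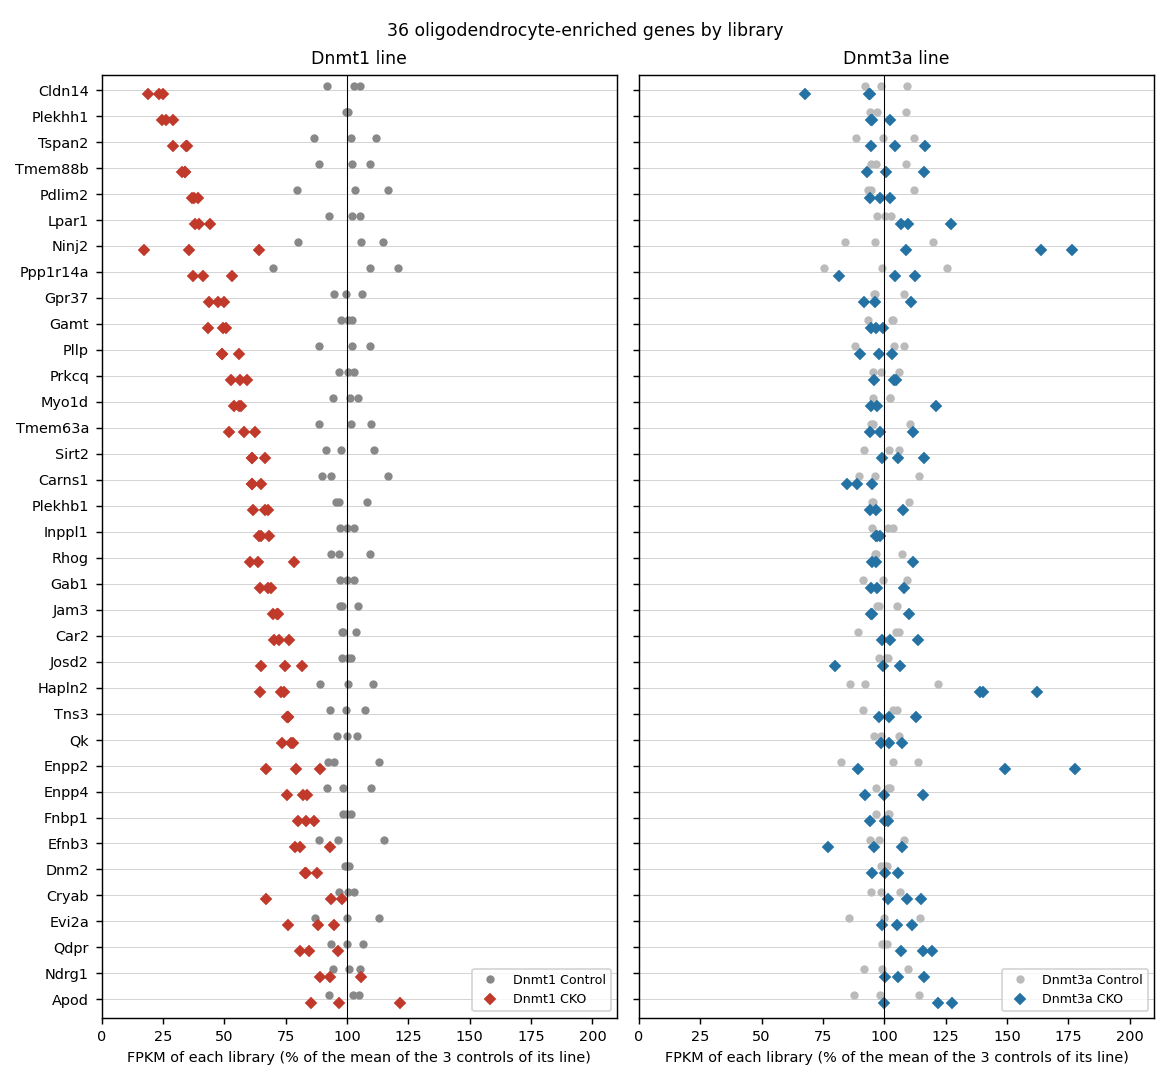
Level of each of the 36 genes in each library, as a percentage of the mean of the 3 controls of its line (x axis), ordered by the log2 fold change of the Dnmt1 line. Circles are controls and diamonds are CKO libraries, left for the Dnmt1 line and right for the Dnmt3a line. Cldn14, at the top, lies lowest in the Dnmt1 CKO libraries, Apod, at the bottom, lies around 100%, and the Dnmt3a CKO libraries scatter around 100% for most genes.

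Among the 9 membrane and junction genes, 6 were called lower and the median log2 fold change was -0.95. Cldn14, a claudin of tight junctions, had the lowest fold change of all members (-1.81, SE 0.10). Its level was 1.23, 1.07 and 1.20 FPKM in controls and 0.294, 0.275 and 0.221 FPKM in the CKO libraries. No library of the groups came near the other group, although the gene was among the lowest expressed of the 36. Tspan2, a tetraspanin found in myelin, was more abundant, at 42.6, 38.6 and 33.0 FPKM in controls and 11.1, 13.3 and 13.1 FPKM in the CKO libraries (-1.60, SE 0.11). Tmem88b, a small membrane protein gene of 2 exons, was at 8.59, 7.99 and 6.95 FPKM against 2.58, 2.68 and 2.68 FPKM (-1.53, SE 0.086). All 3 genes thus kept between 22.5% and 33.7% of the control mean.

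Pllp encodes plasmolipin, a membrane protein of the MAL family that is found in myelin. It was at 23.2, 21.7 and 18.8 FPKM in controls and 10.4, 11.9 and 10.4 FPKM in the CKO libraries, a log2 fold change of -0.95. Tmem63a, an ion channel gated by membrane stretch, was at 3.10, 2.87 and 2.51 FPKM against 1.47, 1.76 and 1.64 FPKM (-0.76). Jam3, a junctional adhesion molecule, was at 11.1, 11.97 and 11.2 FPKM against 8.17, 7.99 and 8.20 FPKM (-0.49). In these 3 genes the groups were apart in every library, with smaller differences from Pllp to Jam3. The 3 membrane genes that were not called behaved differently from each other. Ninj2, an adhesion molecule, had a large but scattered value, at 0.959, 0.884 and 0.669 FPKM in controls and 0.144, 0.537 and 0.2997 FPKM in the CKO libraries (-1.23, SE 0.35). Enpp4, an ectoenzyme that cleaves nucleotides, was at 4.55, 4.09 and 3.82 FPKM against 3.41, 3.48 and 3.14 FPKM (-0.30). Evi2a, a membrane protein gene, overlapped between the groups at 3.70, 4.81 and 4.25 FPKM against 3.76, 4.04 and 3.23 FPKM (-0.20).

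The 8 cytoskeleton and traffic genes were all called lower, with a median of -0.59. Plekhh1, which encodes a protein with pleckstrin homology and FERM domains, stood apart in this group. It was at 2.66, 2.69 and 2.66 FPKM in controls and 0.659, 0.778 and 0.699 FPKM in the CKO libraries, a log2 fold change of -1.77 (SE 0.075). Its CKO libraries kept 26.7% of the control mean, and the controls hardly differed among themselves. Pdlim2, a PDZ and LIM domain protein that binds the actin skeleton, followed with 6.58, 5.82 and 4.50 FPKM against 2.12, 2.22 and 2.07 FPKM (-1.34). Its controls were spread more widely than its CKO libraries. Myo1d, an unconventional myosin, was at 1.36, 1.51 and 1.46 FPKM against 0.779, 0.818 and 0.807 FPKM (-0.78).

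Plekhb1, another pleckstrin homology protein, was at 37.5, 41.9 and 37.0 FPKM in controls and 24.0, 26.2 and 25.9 FPKM in the CKO libraries (-0.61). Rhog, a small GTPase, was at 10.4, 9.23 and 8.93 FPKM against 5.76, 7.47 and 6.08 FPKM (-0.56). Both were separate between the groups. Tns3, a tensin that links adhesions to actin (-0.39), Fnbp1, which bends membranes through its F-BAR domain (-0.26), and Dnm2, the dynamin that pinches off vesicles (-0.24), had the smallest differences of the group. Dnm2 was at 13.4, 13.3 and 13.5 FPKM in controls and 11.1, 11.1 and 11.7 FPKM in the CKO libraries, so that a small difference was still far outside the spread of the replicates. The calls of Rhog, Tns3, Fnbp1 and Dnm2 were nevertheless lost without some single library of the line, Dnmt1 Control replicate 2 among them.

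Of the 8 receptor and signalling genes, 6 were called lower, with a median of -0.70. Lpar1, a receptor for lysophosphatidic acid, had the largest difference at 7.44, 7.23 and 6.56 FPKM in controls and 2.68, 3.13 and 2.81 FPKM in the CKO libraries (-1.27, SE 0.081). Ppp1r14a, an inhibitor of protein phosphatase 1, was at 4.74, 5.25 and 3.03 FPKM against 1.61, 2.30 and 1.80 FPKM (-1.13, SE 0.23). Gpr37, a G protein-coupled receptor of oligodendrocytes, was at 8.64, 8.11 and 7.71 FPKM against 3.55, 3.87 and 4.07 FPKM (-1.07). Ppp1r14a had the widest spread of the 3, and its call was lost in 5 of the 6 fits that left out a library of the line.

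Prkcq, the theta isoform of protein kinase C, was at 4.43, 4.54 and 4.27 FPKM in controls and 2.33, 2.61 and 2.50 FPKM in the CKO libraries (-0.81). Inppl1, the lipid phosphatase SHIP2, was at 6.98, 7.41 and 7.18 FPKM against 4.66, 4.90 and 4.61 FPKM (-0.60). Gab1, an adaptor of growth factor receptors, was at 5.24, 4.95 and 5.09 FPKM against 3.28, 3.53 and 3.45 FPKM (-0.56). These 3 genes were separate in every library with little spread. Efnb3, a ligand of Eph receptors (-0.24), and Ndrg1, a stress-responsive cytoplasmic protein of the NDRG family (-0.06), were not called and overlapped between the groups. Ndrg1 was at 8.46, 9.04 and 9.44 FPKM in controls and 8.36, 7.99 and 9.48 FPKM in the CKO libraries, the highest of the 6 values being in a CKO library.

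The 4 metabolic enzymes included 3 that were called lower, with a median of -0.53. Gamt, which makes creatine from guanidinoacetate, was at 8.35, 8.46 and 8.11 FPKM in controls and 4.10, 4.23 and 3.59 FPKM in the CKO libraries (-1.05, SE 0.071). Carns1, the carnosine synthase, was at 1.36, 1.42 and 1.77 FPKM against 0.926, 0.930 and 0.987 FPKM (-0.62). Car2, a cytosolic carbonic anhydrase, was at 37.1, 35.3 and 35.1 FPKM against 25.9, 27.3 and 25.3 FPKM (-0.45). All 3 were separate between the groups. Qdpr, which regenerates tetrahydrobiopterin, was at 33.4, 31.3 and 29.2 FPKM against 26.4, 30.2 and 25.4 FPKM (-0.20) and overlapped in 1 CKO library.

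Of the 4 genes of protein and RNA handling, 3 were called lower, with a median of -0.42. Sirt2, a deacetylase of tubulin and other proteins, was the most abundant member in both control groups. It was at 139, 122 and 114 FPKM in the Dnmt1 controls and 76.5, 83.5 and 76.9 FPKM in the CKO libraries (-0.66, SE 0.079). Josd2, a deubiquitinating enzyme, was at 16.6, 16.8 and 16.2 FPKM against 13.5, 12.3 and 10.7 FPKM (-0.44). Qk, an RNA-binding protein that regulates myelin transcripts, was at 63.2, 60.6 and 58.3 FPKM against 44.7, 46.8 and 47.4 FPKM (-0.39). Cryab, a small heat shock protein, was at 20.2, 21.04 and 21.5 FPKM against 20.5, 14.0 and 19.6 FPKM (-0.23), and a single CKO library carried most of that difference.

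None of the 3 secreted proteins was called, and their median was -0.35. Hapln2, which binds hyaluronan in the matrix at the nodes of Ranvier, was at 0.775, 0.854 and 0.686 FPKM in controls and 0.563, 0.573 and 0.497 FPKM in the CKO libraries (-0.43). Enpp2, also known as autotaxin, which makes lysophosphatidic acid, was at 91.8, 74.8 and 77.1 FPKM against 72.2, 64.4 and 54.5 FPKM (-0.35, SE 0.12). Apod, a lipid carrier of the lipocalin family, was at 20.7, 20.2 and 18.3 FPKM against 16.8, 19.0 and 24.0 FPKM (0.00, SE 0.13). Hapln2 and Enpp2 were thus separate between the groups without a call, and Apod was spread more widely in the CKO libraries than in the controls.

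**Figure D2:**
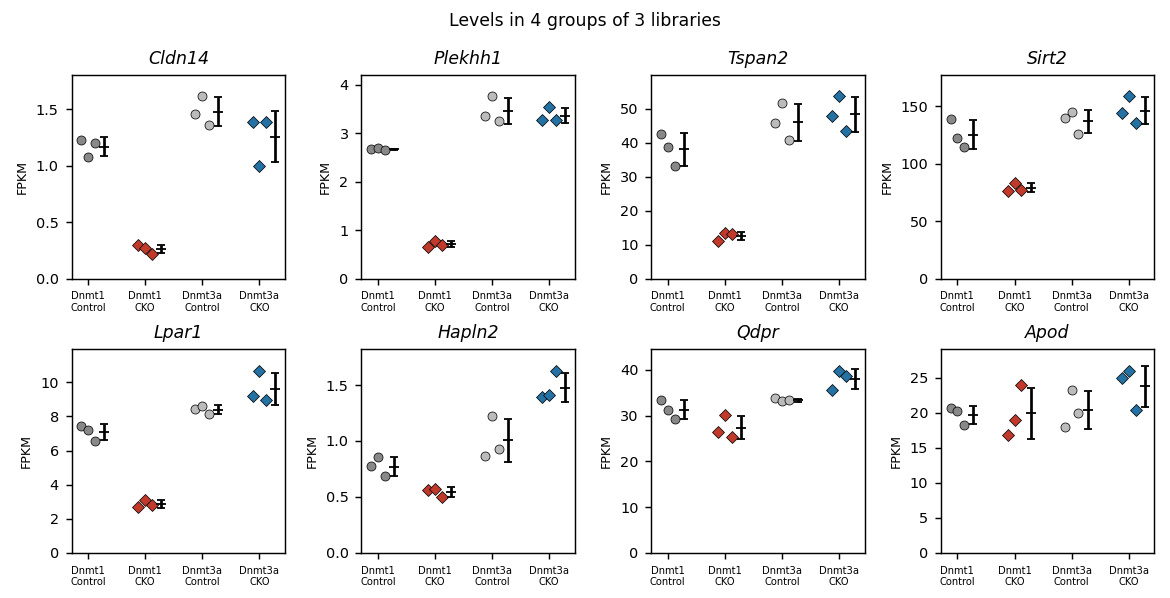
Level in FPKM (y axis) of 8 of the genes in the 4 groups of 3 libraries. Symbols are libraries, and the bar beside them is the mean with the SD. Cldn14, Plekhh1, Tspan2, Sirt2 and Lpar1 are lower in the Dnmt1 CKO group than in every control library, Apod is not, and Hapln2, Lpar1 and Qdpr are higher in every Dnmt3a CKO library than in every Dnmt3a control.

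The Dnmt3a line answered whether the same genes differ when the other methyltransferase gene is deleted with the same cre. They were close to the controls. The Dnmt3a CKO libraries held 98.3%, 109.5% and 98.04% of the control mean in the median over the members, and the controls held 98.6%, 107% and 96.0%. No member was called (limma over all rows, 10% FDR, lowest adjusted p 0.66), where 0.0142% of all rows were called. Dnmt3a itself (-0.78) and Olig1 (-0.49) were not called in this fit either, both with a limma adjusted p of 0.66. In both genes every CKO library nevertheless lay below every control. At an unadjusted p under 0.05 there were 4 members, or 11.1%, against 7.35% of all rows. The median log2 fold change was 0.02 over the members and 0.01 over all rows, with 14 members below 0 and 22 above, and 25 lay within 0.1 of 0 on the log2 scale. The values ran from -0.23 (Cldn14) to 0.53 (Ninj2), with Hapln2 at 0.52. A p that misses the threshold does not show that the levels were equal, and the standard errors ran from 0.041 for Fnbp1 to 0.27 for Enpp2.

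The 4 members with an unadjusted p under 0.05 were all higher in the CKO group. Qdpr was at 33.8, 33.1 and 33.4 FPKM in controls and 35.7, 39.8 and 38.7 FPKM in the CKO libraries (0.19, SE 0.045). Hapln2 was at 0.864, 1.22 and 0.925 FPKM against 1.40, 1.41 and 1.63 FPKM (0.52, SE 0.14). Lpar1 was at 8.42, 8.63 and 8.12 FPKM against 9.18, 10.7 and 8.95 FPKM (0.19, SE 0.075). In these 3 every CKO library lay above every control, which makes 8.33% of the members, and the same held for 7.33% of all rows. The fourth, Ninj2, was at 1.01, 1.26 and 0.886 FPKM against 1.14, 1.86 and 1.73 FPKM (0.53, SE 0.21), with 1 CKO library inside the range of the controls. All 4 had an adjusted p of 0.66 from limma with Benjamini-Hochberg adjustment.

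The library labelled Dnmt3a Control replicate 2, whose Dnmt3a level was like that of the CKO libraries, was the highest of its group in 28 of the 36 members. Without it the median log2 fold change was 0.06, 7 members lay below 0, and still 0 were called. In that comparison every CKO library lay above both other controls in 8 members, or 22.2%, against 13.7% of the symbols tested (Apod, Cryab, Hapln2, Lpar1, Ndrg1, Ninj2, Qdpr and Qk). Dnmt3a CKO replicate 2 was in turn the highest of its group in 27 members, and without it the median was -0.04 with 21 members below 0. Without Dnmt3a Control replicate 1 or 3, 19 or 20 members lay below 0, so the side on which most members lay depended on single libraries, although not on the library labelled Dnmt3a Control replicate 2.

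The difference between the lines was read as the Dnmt1 effect minus the Dnmt3a effect in a fit of all 12 libraries. It was below 0 in all 36 members, with a median of -0.59 against -0.03 over all rows. A lower effect in the Dnmt1 line was called for 25 members, where 1.83% of all rows were called in that direction. This difference contains the contrast by which the genes were chosen, so it is a description too. Of the 26 genes called in the Dnmt1 line, 23 were among the 25. Ppp1r14a, Carns1 and Josd2 were not called for the difference, and Ninj2 and Hapln2 were called only there (of these 2 fits), both having Dnmt3a values above 0. Without the library labelled Dnmt3a Control replicate 2 the count was 21.

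The control groups of the 2 lines were not at the same level. The Dnmt3a controls lay above the Dnmt1 controls in 32 of the 36 members, with a median difference of 0.18 on the log2 scale against -0.02 over all symbols. In 17 members every Dnmt3a control library lay above every Dnmt1 control library, and in 0 the reverse, where 3.98% of all symbols tested were higher in that way. The Dnmt1 control values belong to the contrast that chose the genes, so no test was made. Examples were Plekhh1, with 3.36, 3.76 and 3.25 FPKM in the Dnmt3a controls and at most 2.69 FPKM in the Dnmt1 controls, and Cryab, with 26.4, 29.7 and 27.5 FPKM and at most 21.5 FPKM. Without the library labelled Dnmt3a Control replicate 2 there were 18 such members, against 6.66% of the symbols tested. The lines are separate crosses, and genotype and line cannot be told apart in this comparison.

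The members were next set beside lists of other genes of the lineage and of other cells in the cortex. All of these lists were chosen with earlier results of these data known, and the members partly by the Dnmt1 contrast. Their counts and medians in that line are therefore a description, and no test between lists was made. All 20 myelin sheath genes were called lower in the Dnmt1 CKO cortex, where 2.3% of all rows were. Their median log2 fold change was -1.69, and that of the 36 members was -0.58. Mobp, which encodes a small basic protein of the sheath, was at -2.23. Of 9 genes of newly formed oligodendrocytes 6 were called lower (Enpp6, Bcas1, Bmp4, Neu4, Kif19a and 9630013A20Rik), with a median of -0.65, close to that of the members. Of 10 genes of oligodendrocyte progenitors 3 were called lower (Gpr17, Pdgfra and Sox6), with a median of -0.20. That count was 1 or 2 with any library of the line left out (1 without Dnmt1 Control replicate 2 or any of the 3 CKO libraries), while that of the newly formed cells was 4 to 6 (4 without Dnmt1 Control replicate 2, Dnmt1 CKO replicate 1 or Dnmt1 CKO replicate 3). For the myelin sheath genes it was 19 or 20. Pdgfra, the receptor for platelet-derived growth factor that marks progenitors, was at -0.30, and Gpr17, which marks cells about to differentiate, at -0.56. No gene of these 3 lists was called in the Dnmt3a line, where their medians were 0.06, 0.01 and -0.01 for sheath, newly formed cells and progenitors. Without the library labelled Dnmt3a Control replicate 2 these were 0.11, 0.03 and -0.01, again with 0 called.

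**Figure D3:**
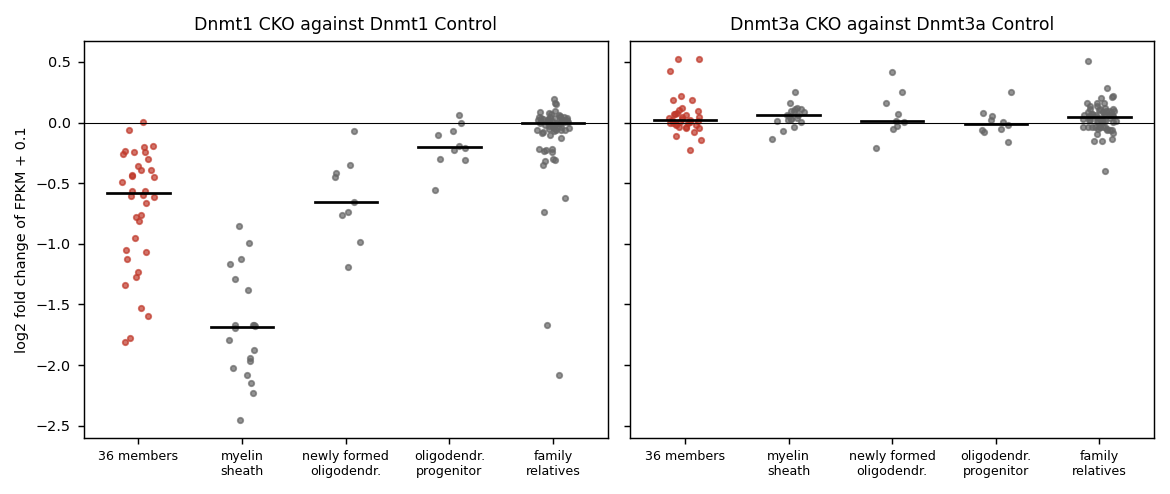
Log2 fold change of log2(FPKM + 0.1) (y axis) for the 36 members and 4 lists, CKO against controls, left in the Dnmt1 line and right in the Dnmt3a line. Points are genes and black bars are medians. In the Dnmt1 line the medians are -0.58 for the members, -1.69 for the myelin sheath genes, -0.65 for newly formed oligodendrocytes, -0.20 for progenitors and -0.01 for the members' relatives, and in the Dnmt3a line the medians lie near 0.

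Lists of cells outside the lineage followed. Of 10 astrocyte genes 1 was called in the Dnmt1 line, Gfap, an intermediate filament protein (0.45), and the median was -0.05. Of 10 microglia genes 3 were called higher, the complement genes C1qa (0.34), C1qb (0.42) and C1qc (0.27), and the median was 0.07. None of 10 neuron genes, 10 endothelium genes and 10 genes of meninges and vessel wall was called, with medians of 0.01, -0.16 and -0.14. Of the 7 blood genes 4 were tested and 0 called, with a median of -0.74. The part of these other cells in the members' values was not tested.

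Many members belong to families with relatives that are not particular to oligodendrocytes. Of 72 relatives listed, 66 were tested, and 3 were called lower in the Dnmt1 line, where 2.3% of all rows were. Their median was -0.01. In a fit of all 12 libraries 6 were called lower, where 464 of all 14115 rows were. The 3 were Mal (-2.08), Cldn11 (-1.67) and Enpp6 (-0.73), which are themselves genes of myelin or of newly formed oligodendrocytes. Cldn5, the claudin of endothelium, was at -0.31 and Cldn12 at 0.00, beside -1.81 for the member Cldn14. Plekhh2 and Plekhh3 were at -0.10 and -0.06, beside -1.77 for Plekhh1. Sirt1, Sirt3, Sirt5, Sirt6 and Sirt7 lay between -0.04 and 0.08, beside -0.66 for Sirt2. Gpr37l1, an astrocyte receptor, was at -0.08, beside -1.07 for Gpr37, and Josd1 was at -0.01, beside -0.44 for Josd2. Against this, 4 relatives lay below their member, namely Mal below Pllp (-0.95), Enpp6 below Enpp4 (-0.30), Car14 (-0.62) below Car2 (-0.45) and Hspb1 (-0.35) below Cryab (-0.23). The Dnmt1 contrast chose the members, and no test of these differences was made.

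For 2 pathways the partners of the members were listed as well. Lysophosphatidic acid is made by Enpp2 and sensed by Lpar1 and related receptors. Of 10 other genes of this pathway 7 were tested, and 1 was called lower in the Dnmt1 line, Ppap2c, a lipid phosphate phosphatase (-1.20), with a median of -0.11. The receptors Lpar4 and Lpar6 were at -0.32 and -0.11 and were not called. Creatine, carnosine and tetrahydrobiopterin metabolism, the pathways of Gamt, Carns1 and Qdpr, were represented by 12 other genes, of which 10 were tested, 0 were called, and the median was -0.04. Gatm, which makes the substrate of Gamt, was at -0.06, and Slc6a8, the creatine transporter, at -0.16, whereas Gamt was at -1.05. Pts and Spr, which make tetrahydrobiopterin, were at 0.17 and -0.03. No gene of either list was called in the Dnmt3a line, with or without the library labelled Dnmt3a Control replicate 2.

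Enpp2 was the member whose libraries differed most within the Dnmt3a CKO group. It was at 75.8, 83.3 and 60.3 FPKM in the Dnmt3a controls and 109, 130 and 65.2 FPKM in the CKO libraries (0.43, SE 0.27, limma adjusted p 0.75), and the value was 0.53 without the library labelled Dnmt3a Control replicate 2. Besides oligodendrocytes, the epithelium of the choroid plexus, which secretes cerebrospinal fluid, is rich in this enzyme. The summed level of 10 choroid plexus markers was 107, 127 and 8.14 FPKM in the Dnmt3a controls and 300.5, 427 and 4.58 FPKM in the CKO libraries, and most of it was transthyretin (Ttr). In the Dnmt1 line the sum was 281, 122 and 172 FPKM in controls and 253, 229 and 87.1 FPKM in the CKO libraries. Of the 10 markers 7 passed the filter and 0 were called in either line. Within each of the 4 groups the libraries had the same order for Enpp2 and for this sum. Enpp2 was the only member of which this held, and it held for 0.114% of all symbols tested.

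**Figure D4:**
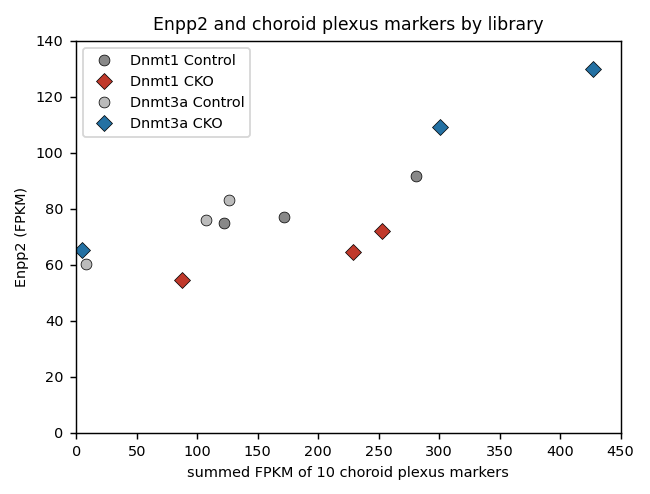
Enpp2 level (y axis, FPKM) against the summed level of 10 choroid plexus markers (x axis, FPKM) in the 12 libraries, by group. The highest Enpp2 level, 130 FPKM, is in the library with the highest sum, 427 FPKM, and at similar sums the Dnmt1 CKO libraries lie below the others.

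In a fit with that sum as a covariate, chosen after seeing the data, the Dnmt3a value of Enpp2 was 0.02 (SE 0.062). In the Dnmt1 line its value remained at -0.35, with an SE of 0.041 in place of 0.12, and it passed 10% FDR there. The counts of members called in that fit, made with every library of each line, were 24 in the Dnmt1 line (23 of the 26 and Enpp2), 0 in the Dnmt3a line and 19 for the difference.

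What the promoters share was described without a test. Among the 19 members with 1 listed promoter, the 9 with more than 16 CG in the 250 bases before the start lay at -0.56 in the median of the Dnmt1 fold changes (log2). The 10 with at most 16 CG lay at -0.81. Both sets were wide, from -1.77 to -0.20 and from -1.53 to 0.00. Among these 19, none with more than 18 CG lay below -0.81. Plekhh1, with 18 CG, and Tmem88b, with 3, were both far below the controls, and Enpp4, with 31, and Apod, with 4, had -0.30 and 0.00. These 4 windows are examples with unlike counts in each pair, so no relation to the number of CG can be read from them. Of letters searched on both strands, CAGCTG (an E-box) was in 14.3% of the 35 member windows and 12.4% of the windows of all symbols tested. ACAAAG was in 22.9% against 12.2%, ACAATG in 17.1% against 6.28%, and AACAAT in 14.3% against 5.39%. The last 3 resemble the core of SOX binding sites, and ACAATG and AACAAT overlap in a common longer word. TATAAA was in 0 member windows and in 6.49% of the windows of all symbols tested. Over all 32851 promoter windows, of tested and untested genes, CAGCTG was in 13%, ACAAAG in 16.5%, ACAATG in 10.7%, AACAAT in 9.42% and TATAAA in 12.4%. With 35 member windows each of their shares rests on at most 8 matches, and a match is a word in a window, not a bound site.

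**Figure D5:**
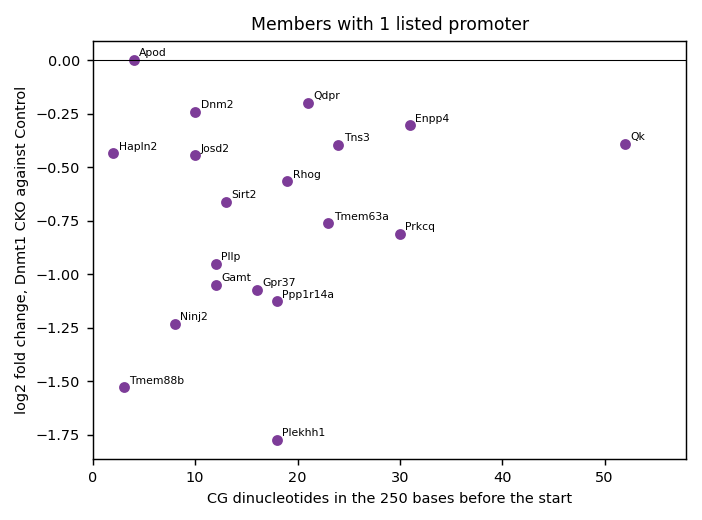
Number of CG dinucleotides in the 250 bases before the start (x axis) and log2 fold change of the Dnmt1 line (y axis) for the 19 members with 1 listed promoter. Points are genes. Low counts of CG occur at large and small differences, from Tmem88b (3 CG) at -1.53 to Apod (4 CG) at 0.00. Plekhh1 (18 CG) is lowest at -1.77. The genes with the most CG lie at -0.81 (Prkcq, 30 CG), -0.30 (Enpp4, 31 CG) and -0.39 (Qk, 52 CG).

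Some members share exons with other genes, and no marking of the strand is stated for these libraries, so reads there cannot be assigned to 1 of the genes. In the GENCODE M21 annotation of GRCm38, 54.2% of the exon bases of Pllp (chr8:94674894-94696278) lie under Gm45767 on the opposite strand. For Carns1 (chr19:4164324-4175479) that share is 40.3%, or 45.9% on either strand, and 24.6% of its words of 50 bases also occur in AC109138.8. Jam3 (chr9:27097384-27155421) shares 36.2% with Gm48796, Inppl1 20.3% with Phox2a and Gm10602, Evi2a 19.2% with Evi2, Qdpr 18.6% with Gm42413, Cryab 17.0% with Hspb2 and Plekhh1 14.8% with Pigh. A share of exon bases is not a share of reads, and how far the values of these genes are affected was not tested.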

How the data were processed

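RNA of whole cortex of mice at postnatal day 16 was sequenced in 12 libraries with a TruSeq RNA kit. The authors aligned reads to mm10 and deposited FPKM values per gene from Cufflinks, normalized for transcript length and mapped fragments. Of 23850 deposited rows, 302 exact duplicates were removed, leaving 23548. FPKM are not counts, so no count test was run, and depth in reads is known only as relative depth. Groups and replicates were taken from the sample titles. The labels call them biological replicates of each genotype.

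Values were tested as log2(FPKM + 0.1) over the 14115 rows that averaged 0.5 FPKM or more, in limma 3.58.1 (R 4.3.3) with a mean-variance trend and Benjamini-Hochberg adjustment, at 10% FDR, which is the study's threshold. Each line was fitted alone, and the difference between lines in all 12 libraries. The fit was tested on simulated data. Fold changes on this scale understate the changes of low genes. The 36 genes and all lists were chosen with earlier results of these data known. All 36 are named. Other genes were named from the fixed lists where they were called, define a cell type or are relatives of a member.

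Same-numbered control and CKO libraries did not deviate together (correlations of deviations from group means between -0.08 and 0.04 over all rows). Positions are from GENCODE M21 (GRCm38), promoters from RefSeq GRCm38.p6. Alternatives were other pseudocounts, filters, scalings, variance moderation, a 5% FDR, an Xist covariate, a replicate block, and leaving out each library.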

Additional observations from a re-analysis of the deposited data

Results flagged for a closer look

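The effect of CKO differed between the Dnmt1 and the Dnmt3a line in 25 of the 36 members (limma interaction term, 10% FDR), each with the lower value in the Dnmt1 line. The genes were chosen partly for their Dnmt1 values, so this count is no independent evidence. Groups of 3 libraries were too small for a check of single outlying values.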

How the results depend on the processing

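Depth in reads was not known, 3 libraries a group limit the precision, and fold changes of genes near 1 FPKM depend on the pseudocount. In the Dnmt1 line the count of members called lay between 22 and 27 under every alternative that kept all libraries, except the replicate block, under which it was 16. The numbers do not pair the libraries, so that fit spends degrees of freedom on a shared number. Leaving out 1 library gave 18 (without Dnmt1 Control replicate 2) to 25, and 19 without Dnmt1 CKO replicate 1. The calls of 18 of the 26 genes held with every library left out, those of Carns1, Dnm2, Fnbp1, Josd2, Ppp1r14a, Rhog, Tmem63a and Tns3 did not, and those of Gab1 and Qk were lost under the block only. Hapln2 gained a call with median ratio scaling, quantile normalization and without Dnmt1 Control replicate 3, and Ninj2 in a fit of all 12 libraries and without Dnmt1 CKO replicate 2, while a minimum mean of 1 FPKM removed both. The median of the members was -0.46 with a pseudocount of 1, and -0.55 to -0.61 with 1 library left out. Apod ran from -0.14 to 0.12 there. For the difference between lines the count lay between 19 and 25.

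In the Dnmt3a line 0 members were called under every alternative, and the replicate block changed no call there. The median ran from -0.04 to 0.06 with 1 library left out. Small values changed sign: with median ratio scaling Ppp1r14a (-0.00202) and Dnm2 (-0.0077), with quantile normalization Dnm2 (-0.00206), and with the choroid plexus sum as a covariate Tspan2 (-0.062), Tmem88b (-0.023), Ppp1r14a (-0.062), Prkcq (-0.038), Myo1d (-0.048), Tmem63a (-0.042), Sirt2 (-0.00125), Rhog (-0.058), Tns3 (-0.026), Qk (-0.015) and Dnm2 (-0.050). For 22 members the sign changed with 1 library left out, with these lowest and highest values: Car2 (-0.00606 to 0.12), Dnm2 (-0.0367 to 0.0409), Efnb3 (-0.22 to 0.021), Enpp4 (-0.0573 to 0.10), Evi2a (-0.0256 to 0.18), Fnbp1 (-0.0445 to 0.0131), Gab1 (-0.0616 to 0.0635), Gpr37 (-0.0866 to 0.0483), Jam3 (-0.0786 to 0.0313), Josd2 (-0.17 to 0.0402), Myo1d (-0.059 to 0.11), Pdlim2 (-0.0681 to 0.063), Plekhb1 (-0.065 to 0.0618), Plekhh1 (-0.0779 to 0.0236), Pllp (-0.13 to 0.0153), Ppp1r14a (-0.18 to 0.18), Prkcq (-0.0116 to 0.0604), Rhog (-0.0605 to 0.0628), Tmem63a (-0.0506 to 0.0911), Tmem88b (-0.0448 to 0.12), Tns3 (-0.00391 to 0.10), Tspan2 (-0.0131 to 0.16). The cause was not tested.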
